A study of Rattus norvegicus with 13 samples.

Results

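Mammary carcinomas that arose in rats irradiated after puberty were compared with normal mammary tissue of rats that were not irradiated. The carcinoma group was made of every array whose title names a carcinoma induced by postpubertal irradiation (IR-7W, 6 arrays) and the normal group of every array titled as normal tissue without irradiation (3 arrays), so 9 of the 13 arrays of the series entered the comparison. All rats were females of the Sprague-Dawley stock, an outbred laboratory rat. The IR-7W rats were given a 2 Gy dose of whole-body gamma radiation from caesium-137 (0.6 Gy/min) at the age of 7 weeks, were fed a diet with 23.5% corn oil from week 9, and were killed at 50 weeks, when palpable tumours were taken. The normal rats received no radiation, and the labels call their tissue age-matched in 1 place and give 7 weeks as the age in another, so the age is not settled, nor is their diet. The other 4 arrays held carcinomas of rats given the same dose and diet after irradiation at 3 weeks, before puberty (IR-3W). They serve here for a direct comparison between carcinomas and in the shared estimate of spread. Each array was an Agilent 1-colour rat gene expression array, on which 1 RNA sample is labelled with 1 dye and the brightness of each probe is read. The labels do not say that each array stands for its own rat, so every p-value reflects only how far these samples scatter, and that scatter may be technical.

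The mammary gland is a tree of epithelial ducts embedded in fat, with an inner layer of luminal cells that can secrete milk and an outer layer of contractile basal (myoepithelial) cells on a basement membrane. Around them lie fat cells, fibroblasts, blood vessels and immune cells. Oestrogen acts on a subset of luminal cells, which signal to their neighbours through secreted ligands, and ErbB ligands such as amphiregulin are the best known of these. A bulk sample holds all these cells together, so a lower level of a cell type's genes can come from fewer such cells or from less of the RNA per cell, and these cannot be told apart.

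Levels are given as the log2 of the processed signal minus the array's 75th percentile, so that a level of 0 is a probe as bright as that percentile and a difference of 1 is a doubling. Differences are IR-7W minus normal with their standard error (SE), and genes were called at an adjusted p under 0.05 in limma, fitted over all 13 arrays and adjusted by the Benjamini-Hochberg procedure over 25343 genes. The normal arrays were dimmer: their 75th percentile was 82.3 to 179 signal units against 615 to 1242 on the IR-7W arrays, and 48.7 to 54.2% against 61.4 to 71.0% of spots were well above background. No carcinoma shared a slide with the 3 normal arrays, which were also read in another scan on another scanner, while the IR-7W arrays lay on 2 further slides. Slide, scan, scanner and tissue therefore cannot be told apart, and neither can the age and diet of the rats.

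The tissue labels were set against marker genes. The epithelial keratins Krt8, Krt18 and Krt19 and the adhesion genes Epcam and Cdh1 were well above background on all 9 arrays, so both groups held epithelium. The fat-cell genes Adipoq, Cidec and Fabp4 were well above background on all 3 normal arrays.

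Promoters of 4 genes on which the comparison turns are shown, a pair that rose (Areg and Spint2) and a pair that fell (Adipoq and Pck1). They cover the 150 bases before the annotated start in RefSeq for assembly GRCr8 and are written 5′ to 3′ along the gene. Capitals mark matches to 4 motifs, each searched on both strands, so that a match may stand as the reverse complement. The TATA box was searched as TATAAA. The GC box, to which Sp-family factors bind, was searched as GGGCGG. The CCAAT box was searched under the letters of its name. The core of the cyclic AMP response element was searched as ACGTCA.
Areg, chr14:17265642-17265791, minus strand: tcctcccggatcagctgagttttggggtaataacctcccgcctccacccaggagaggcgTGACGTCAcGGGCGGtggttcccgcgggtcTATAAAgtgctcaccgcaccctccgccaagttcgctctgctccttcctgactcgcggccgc
Spint2, chr1:93708092-93708241, minus strand: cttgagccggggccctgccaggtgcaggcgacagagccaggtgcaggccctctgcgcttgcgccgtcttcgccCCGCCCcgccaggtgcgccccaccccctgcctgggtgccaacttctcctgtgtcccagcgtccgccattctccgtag
Adipoq, chr11:91240170-91240319, minus strand: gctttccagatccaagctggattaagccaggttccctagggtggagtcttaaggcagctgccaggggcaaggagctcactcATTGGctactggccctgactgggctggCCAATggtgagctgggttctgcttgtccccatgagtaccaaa
Pck1, chr3:182348422-182348571, plus strand: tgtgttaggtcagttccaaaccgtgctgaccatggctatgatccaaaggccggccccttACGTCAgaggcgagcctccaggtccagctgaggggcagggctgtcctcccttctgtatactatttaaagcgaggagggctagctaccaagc

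The Areg promoter holds the cyclic AMP element on both strands with overlap, starting 91 bases before the gene's start, with a GC box and a TATA box between it and the start. The Pck1 promoter holds the same core once, also starting 91 bases before the start, and the Spint2 promoter holds a GC box alone among these motifs. In the Adipoq promoter 2 CCAAT boxes lie on opposite strands. Over 33469 rat promoters of the same length, searched on both strands, the cyclic AMP core was found in 5.31%, the TATA box in 8% (2678 promoters), the CCAAT box in 23.5% and the GC box in 26% (8710 promoters). A match describes letters and does not show that a factor binds there.

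Of 25343 genes tested, 3031 were higher in IR-7W carcinomas (12%) and 2243 were lower (8.85%), so 5274 (20.8%) were called in limma. The median difference over all genes was -0.02. The balance of higher and lower calls depended on the scaling and on the filter for dim probes, and the shares of all genes serve below as the measure for each list. With each array centred on its median instead, 2509 were higher and 2988 lower, and with only probes well above background on every array 1520 were higher and 1950 lower. Without the filter 3426 were higher and 10347 lower, and with a model-based background correction (normexp) followed by the 75th percentile 2055 were higher and 10665 lower. These settings moved the median of all genes to -0.16, -0.15, -0.41 and -0.55. The total fell to 3038 without normal 1 and to 3054 without normal 2. Among called genes, 102 were at least 16-fold lower and 67 at least 16-fold higher. By brightness, when genes were split into 4 equal parts, lower calls took 6.94% of the dimmest part and 13% of the brightest.

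Genes of fat cells were lower. Of 21 adipocyte markers tested, 17 fell and 0 rose, a share of 81% against 8.85% of all genes, with a median difference of -3.00. The count became 11 without normal 3. The mean level of the list, relative to the normal arrays, was -4.51 to -3.26 on the 6 carcinoma arrays and -0.04 to 0.02 on the 3 normal arrays. Pck1, the enzyme that makes glycerol backbones for stored fat, stood at 2.47, 1.64 and 1.82 on the normal arrays and at -4.46 to -3.70 (median -4.19) on the carcinoma arrays. All carcinomas lay within a narrow band far below the normal samples. Its difference was -6.14 ± 0.25 (SE), the smallest p of any gene (adjusted p = 1.01e-07 in limma).

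Adipoq, which encodes the hormone adiponectin, was at 5.12, 5.0 and 5.58 in normal tissue and between -6.82 and -1.77 (median -4.55) in carcinomas. The carcinomas thus spread over about 5 log2 units while the normal samples lay close together, and the groups did not overlap. Aqp7, the glycerol channel of fat cells, was well above background on all 3 normal arrays and on no carcinoma array, and was at least 377-fold lower (adjusted p = 0.000168). Cidec, which fuses lipid droplets, fell by 6.76 ± 0.87, and Fabp4, a fatty acid carrier, ranged from -1.82 to 0.19 in carcinomas against 5.51 to 5.88 in normal tissue. Cfd, the serum protease adipsin, remained bright in carcinomas at 2.81 to 3.41 although it fell from 7.46, 7.76 and 7.17 (-4.41 ± 0.44, adjusted p = 3.11e-05).

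Regulators and transporters of fat cells moved the same way. Pparg, the transcription factor that drives fat-cell differentiation, stood at 1.12, 0.67 and 0.96 in normal tissue and at -4.13 to -2.72 (median -3.73) in carcinomas. Slc2a4, the insulin-responsive glucose transporter, fell by 3.02 ± 0.45 (adjusted p = 0.000556). Cd36, a fatty acid transporter that capillary endothelium also makes, stood at 5.17 to 5.42 in normal tissue and at -1.44 to 2.86 (median -0.46) in carcinomas. Rbp4, a retinol carrier made by fat and liver, fell by 7.50 ± 0.88 and Car3, a carbonic anhydrase abundant in fat and muscle, by 8.73 ± 1.34, from 4.43, 4.75 and 5.24. The call of Gys2, the liver form of glycogen synthase, was also downward at -5.74 ± 1.15 (adjusted p = 0.00402).

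Enzymes that build fatty acids, which secretory epithelium uses as well as fat, gave fewer calls. Of 18 tested, 3 fell and 0 rose (16.7% against 8.85% of all genes), with a median of -0.89. Scd, the desaturase that makes oleate, went from 5.31, 5.56 and 5.51 to between -0.20 and 3.71 (median 0.26), a difference of -4.48 ± 0.91 (adjusted p = 0.00427). Dgat1, which joins the last fatty acid to triglyceride, fell by 1.55 ± 0.26 and its carcinoma values of 2.17 to 2.79 lay below all normal values. Fasn, fatty acid synthase, at -1.32 ± 0.64 (adjusted p = 0.164), and Acly, which supplies its acetyl-CoA, at -1.11 ± 0.58 (adjusted p = 0.192), did not pass. All 6 carcinomas lay below the normal samples for Acly, while for Fasn the groups overlapped. Acly passed when only the normal and IR-7W arrays were fitted (adjusted p = 0.0135).

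**Figure D1:**
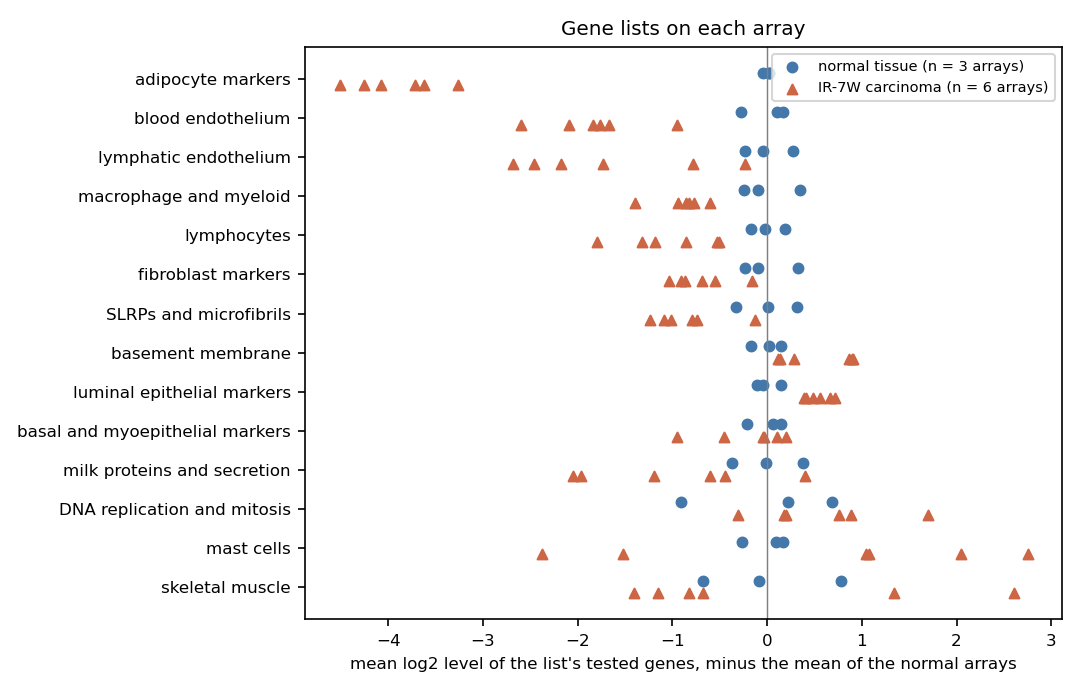
Mean log2 level of the tested genes of 14 lists (rows; SLRPs are small leucine-rich proteoglycans) on each normal array (circles, n = 3) and each IR-7W array (triangles, n = 6), relative to the mean of the normal arrays. The adipocyte list lies at -4.51 to -3.26 on all carcinoma arrays and the luminal list at 0.39 to 0.72, while mast cell and skeletal muscle lists spread widely among carcinomas.

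Other genes with very low levels in carcinomas included metabolic enzymes and proteins known from other organs. Cpa1, a carboxypeptidase best known from the pancreas, was at 1.86, 1.77 and 1.48 in normal tissue and well above background on no carcinoma array, at least 306-fold lower (adjusted p = 1.76e-06). Slc36a2, a proton-coupled amino acid transporter, was at least 49.1-fold lower, Mtarc1, a mitochondrial reductase, at least 47.3-fold lower and Ces1f, a carboxylesterase, at least 39.0-fold lower. None of these 3 was well above background on any carcinoma array. Grifin, a lens member of the galectin family, was near 3.58 to 3.73 in normal tissue and spread from -7.35 to -3.74 in carcinomas (-9.29 ± 0.83). Ces1d, another carboxylesterase, was well above background on 2 of 6 carcinoma arrays and ranged from -8.19 to -2.35, against 1.98, 2.94 and 3.3 in normal tissue.

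Some enzymes that act on foreign compounds and steroids fell. Of 21 xenobiotic and glutathione enzymes tested, 5 fell (23.8% against 8.85% of all genes) and 2 rose (9.52% against 12%). The counts were 3 lower and 1 higher without normal 1, and 2 lower and 2 higher without normal 2. Cyp4b1, a cytochrome P450, stood at 2.45, 0.47 and 1.06 in normal tissue and at -6.94 to -4.06 in carcinomas. Fmo1, a flavin monooxygenase, fell by 5.87 ± 0.92, Akr1c15, an aldo-keto reductase, by 5.45 ± 0.66, and Mgst1, a membrane glutathione transferase that was also on the adipocyte list, by 2.22 ± 0.42. Aox1, an aldehyde oxidase, fell from 2.99, 3.03 and 2.26 to between -2.33 and -0.83 (-4.10 ± 0.42, adjusted p = 3.87e-05). Cela1, an elastase of the pancreas in many mammals, fell by 4.39 ± 0.52, Dmrt2, a transcription factor of somites and kidney, by 5.43 ± 0.44, and Cytl1, a cytokine-like protein known from cartilage, by 5.76 ± 0.84. For every gene in this paragraph the 6 carcinomas lay below the 3 normal samples, as they did for 14.0% of all genes. Lack of overlap was part of the rule that named some of them. With normexp and quantile normalization the differences of these genes and of several fat-cell genes were smaller in size, at -3.91 for Cpa1, -4.12 for Aqp7, -3.78 for Pck1, -2.76 for Pparg, -1.86 for Slc36a2, -2.17 for Mtarc1, -1.68 for Ces1f, -5.54 for Grifin, -4.57 for Ces1d, -4.84 for Rbp4, -2.83 for Gys2, -3.36 for Cyp4b1, -3.23 for Fmo1, -2.81 for Akr1c15, -1.92 for Cela1, -2.31 for Dmrt2, -3.09 for Cytl1 and -1.93 for Slc2a4, and all kept their calls.

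Genes that were higher in carcinomas included secreted and surface proteins of epithelium. Spint2, a membrane-bound inhibitor of serine proteases, whose promoter is printed above, stood at -2.48, -1.76 and -1.06 in normal tissue and at 1.85 to 2.36 (median 2.26) in carcinomas. The carcinomas lay within 0.6 log2 units of each other and about 4 above the normal mean (3.96 ± 0.32, adjusted p = 7.88e-06). Areg, the ErbB ligand amphiregulin, was at 2.29, 2.62 and 3.28 in normal tissue and between 6.28 and 8.01 (median 6.48) in carcinomas, with IR-7W 3 the highest (4.07 ± 0.54, adjusted p = 0.000236). Cited1, a coactivator that binds the oestrogen receptor, stood at 1.19, 0.29 and 1.32 against 5.67 to 8.0 and differed by 5.75 ± 1.36 (adjusted p = 0.0104), but missed the threshold when normal 2 was left out (0.0503).

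Capn8, a calpain protease of stomach mucus cells, rose by 5.28 ± 0.70 and stood between 1.16 and 3.78 in carcinomas. Upk3a, a plaque protein of urothelium, was well above background on 1 normal array and on all carcinoma arrays, and IR-7W 1 and 4 stood highest at 4.81 and 5.20 against 0.72 to 2.18 on the other 4. Its fitted difference of 7.61 ± 1.56 (adjusted p = 0.00457) became 4.21 with normexp and the 75th percentile. Of the 8 tested genes on a list of urothelial and gut genes, 2 rose (Capn8 and Upk3a, 25% against 12% of all genes) and 3 fell (Cela1, Cpa1 and Tff3, 37.5% against 8.85%). The median of the list was -2.38.

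Cdkn2a encodes the cell cycle inhibitor p16 and the p53 activator p19Arf. In normal tissue it stood at -2.83, -3.34 and -2.90. Among carcinomas, 4 stood between 2.54 and 3.37, while IR-7W 5 and 6 stood at -0.10 and -0.03, all above normal (4.89 ± 1.0, adjusted p = 0.00454). Txnip, which binds thioredoxin and restrains glucose uptake, rose by 3.61 ± 0.59 with all carcinomas between 2.65 and 3.53. Otos, known from the inner ear, rose by 4.41 ± 0.90, Tmem150c, a membrane protein linked to mechanosensitive currents, by 4.04 ± 0.90, and Cd200, an immune-inhibitory surface glycoprotein, by 2.56 ± 0.39. Exosc7, a subunit of the RNA exosome, rose by 3.79 ± 0.40 (2.13 with normexp and the 75th percentile).

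Several genes were well above background on carcinoma arrays and on no normal array. Sirt5, a mitochondrial enzyme that removes succinyl and malonyl groups from proteins, was well above background on no normal array and on all 6 carcinoma arrays, at -0.04 to 0.71 (at least 26.1-fold higher, adjusted p = 5.76e-06). Abcc8, the sulphonylurea receptor of ATP-sensitive potassium channels, was at least 27.8-fold higher (adjusted p = 0.00926), at -1.62 in IR-7W 3 and -0.07 to 1.63 in the others. Of the 3031 genes called higher, 1097 were well above background on no normal array, and of the 2243 called lower, 65 were so on no carcinoma array. These counts cannot be compared directly, because a probe was kept if well above background on at least 3 arrays. Probes dim on all normal arrays could pass on any 3 of the 6 IR-7W and 4 IR-3W arrays. Those dim on all IR-7W arrays had only the 3 normal and 4 IR-3W arrays to pass on. The normal arrays were also dimmer. How much of the imbalance comes from the filter or from the dimmer arrays was not tested. With normexp and the 75th percentile the fitted values were 1.86 for Sirt5 and 2.24 for Abcc8.

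**Figure D2:**
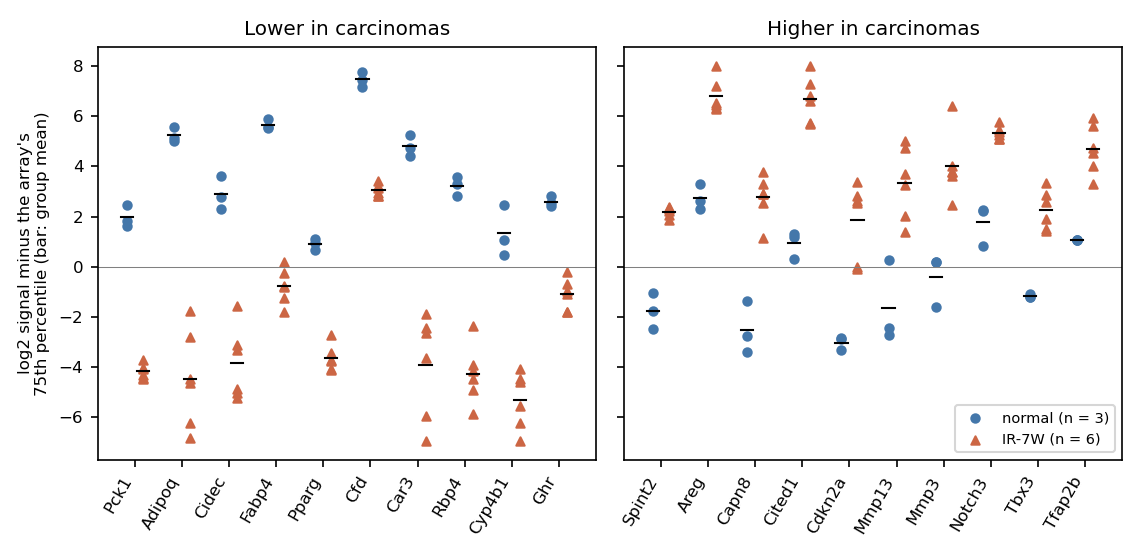
Log2 level (signal minus the array's 75th percentile) of 10 genes that were lower (left) and 10 that were higher (right) in IR-7W carcinomas (triangles, n = 6) than in normal tissue (circles, n = 3); bars are group means. The groups do not overlap for any of them, which was a condition of the rule that named some of them. Of all genes, 14.9% were higher and 14.0% lower without overlap. Adipoq and Car3 vary most among carcinomas.

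Among general markers of luminal epithelium the number of calls depended on the setting. Of 26 tested, 3 were higher (11.5% against 12% of all genes) and 0 lower, with a median of 0.58 beside -0.02 for all genes. With normexp and the 75th percentile 12 were higher and 2 lower, with normexp and quantile normalization or with only the 2 groups fitted 7 were higher and 2 lower, with quantile normalization alone 7 were higher, without the filter 6 were higher and 2 lower, with slide as a random block 5 were higher and 3 lower, and without normal 2 the count was 1 higher. On the array level the list stood at 0.39 to 0.72 in carcinomas, above all normal arrays (-0.11 to 0.15). Krt8, a luminal keratin, stood at 3.37, 3.83 and 3.31 in normal tissue and 4.06 to 5.53 in carcinomas, without overlap and without passing (1.02 ± 0.37, adjusted p = 0.0658), though it passed with quantile normalization (adjusted p = 0.0238). Its partner Krt18, at 0.21 ± 0.36, and Epcam, an epithelial adhesion protein, at 0.40 ± 0.30, overlapped between groups. Besides Spint2, Grhl2, a factor that maintains epithelial identity, was higher by 1.13 ± 0.32 (adjusted p = 0.0242), and missed the threshold when normal 1 (0.0985) or normal 2 (0.107) was left out. The basal keratins Krt5 (1.38 ± 0.64, with 1 carcinoma array left out for an outlier flag) and Krt14 (-0.75 ± 0.52) did not pass, and of 21 basal and myoepithelial markers 2 were lower and 0 higher (9.52% against 8.85% of all genes), with 0 lower without normal 2 and 1 lower without normal 1, normal 3, IR-7W 1, IR-7W 3, IR-7W 4 or IR-7W 5.

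No milk gene of 20 tested was called in limma (0 higher, 0 lower), and their levels varied among carcinomas. Csn2, the milk protein beta-casein, stood at 9.42, 9.53 and 9.26 in normal tissue and ran from 4.45 in IR-7W 1 to 9.21 in IR-7W 6, all below normal. The difference of -2.56 ± 1.96 did not pass (adjusted p = 0.387). Csn1s1, alpha-S1-casein, stood at 7.66 to 8.46 in carcinomas and 7.49 to 7.88 in normal tissue, and these ranges overlapped. Glycam1, a mucin secreted into milk, was lowest in IR-7W 1 at 3.85 and highest in IR-7W 6 at 8.98, against 9.40 to 9.56 in normal tissue. It did not pass in the fit of all arrays (adjusted p = 0.293) but did when only the normal and IR-7W arrays were fitted (adjusted p = 0.0238).

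Some basement membrane genes rose. Of 11 tested, 4 rose (36.4% against 12% of all genes) and 0 fell, with a median of 0.31. Col7a1, the collagen of anchoring fibrils, stood at 0.76, -0.03 and 0.75 in normal tissue and at 1.46 to 3.06 (median 2.47) in carcinomas (1.96 ± 0.40, adjusted p = 0.00457). Lamb3, the beta chain of laminin-332, which anchors epithelium to its basement membrane, went from 3.1, 2.84 and 3.53 to 4.31 to 5.30 (1.69 ± 0.36, adjusted p = 0.00619). Lamb2, a laminin chain of vessels and muscle, was higher by 1.16 ± 0.27 with 1 carcinoma array left out for an outlier flag, a call lost without normal 2 (adjusted p = 0.0626).

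Transcription factors of the mammary bud and of mammary lineages, taken as 1 list, went both ways. Of 19 tested, 3 rose (15.8% against 12% of all genes) and 4 fell (21.1% against 8.85%), while the count of lower genes was 1 without normal 1 and 2 without normal 2. Tbx3, which is required to form the mammary placode in mice, stood at -1.19, -1.07 and -1.20 in normal tissue and 1.42 to 3.32 in carcinomas (3.41 ± 0.57, adjusted p = 0.00124). Tfap2b, an AP-2 family factor, stood at 1.06 to 1.08 in normal tissue and 3.28 to 5.93 in carcinomas (3.61 ± 0.70, adjusted p = 0.00331). Msx2, a homeobox factor of bud mesenchyme and epithelium, was well above background on no normal array and was at least 11.7-fold higher (adjusted p = 0.0074), though not with normexp and the 75th percentile (adjusted p = 0.102) and in the deposited values (adjusted p = 0.0752). Nfib, a nuclear factor needed for lactation genes, was lower by 1.63 ± 0.39 (adjusted p = 0.0114), lost without normal 1 (0.0556) and with the mean of its probes (0.0896). Irx2, an Iroquois factor, was lower by 1.43 ± 0.36, lost without normal 2 (adjusted p = 0.0709) and with normexp and the 75th percentile (0.0611).

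Hormone receptors gave calls in both directions, and their counts depended on single arrays. The lowest member stood at -3.68, the value of the growth hormone receptor Ghr given below, whose call was kept without each array in turn. Of 12 hormone receptors tested, 2 were higher (16.7% against 12%) and 3 lower (25% against 8.85%). The lower count was 1 without normal 1, normal 2, IR-7W 1, IR-7W 3, IR-7W 4 or IR-7W 5, the higher count was 1 without normal 1 and 0 without normal 3, and with normexp and the 75th percentile 1 was higher and 7 lower. Prlr, the prolactin receptor, stood at -1.76, -1.32 and -1.69 in normal tissue and 0.34 to 1.67 in carcinomas (2.49 ± 0.63, adjusted p = 0.0148), lost without normal 1 (0.0614) or normal 3 (0.0505). Pgr, the progesterone receptor, was well above background on no normal array and all carcinoma arrays, at least 4.93-fold higher (adjusted p = 0.0106), but missed the threshold when normal 3 was left out (0.061), in the deposited values (0.198) and with normexp and the 75th percentile (0.97). Esr1, the oestrogen receptor, was at least 1.35-fold higher without passing (adjusted p = 0.261), and its fitted difference of 1.06 turned to -1.02 with normexp and the 75th percentile. Foxa1, a pioneer factor that opens chromatin for it, was at least 1.44-fold higher and did not pass (adjusted p = 0.0916), with -0.84 under that setting. Foxa1 did pass as higher with quantile normalization (3.33, adjusted p = 0.00361), with only the 2 groups fitted (0.00966) and with normexp and quantile normalization (0.43, adjusted p = 0.0454). Tff3, a trefoil peptide induced by oestrogen, was well above background on 1 normal array and no carcinoma array (at least 5.42-fold lower, adjusted p = 0.000335, with a fitted difference of -2.83 that was -0.45 with normexp and quantile normalization).

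Among ErbB ligands Areg alone passed, 1 of 7 tested (14.3% against 12% of all genes). Tgfa, a ligand of the same receptor, stood at 1.37 to 1.95 in carcinomas and 1.0, 1.32 and 0.35 in normal tissue, above but not past the threshold (0.75 ± 0.48, adjusted p = 0.297). Nrg2, a neuregulin, stood at 1.53 ± 0.53 (adjusted p = 0.0561) and passed when only the 2 groups were fitted (adjusted p = 0.0106). The receptors Egfr (-0.64 ± 0.47) and Erbb2 (0.08 ± 0.22) overlapped between the groups. Erbb3, the neuregulin receptor that signals through Erbb2, was higher by 1.17 ± 0.34 (adjusted p = 0.029). That call was lost without normal 1 (0.113), normal 3 (0.131), IR-7W 1 (0.0536), IR-7W 3 (0.0565) or IR-7W 6 (0.0527), with quantile normalization (0.0572) and with median centring (0.0682), and the value turned to -0.07 with normexp and the 75th percentile.

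In the growth hormone axis, Ghr, the growth hormone receptor, fell and so did Igf1, the growth factor that stroma makes under its control. Of 15 genes tested, 1 rose (6.67% against 12% of all genes) and 4 fell (26.7% against 8.85%), with 0 higher and 3 lower without normal 1. Igf1 stood at 6.12, 6.03 and 6.32 in normal tissue and at 3.7 to 4.16 in 5 carcinomas, with IR-7W 3 apart at 2.90 (-2.40 ± 0.44, adjusted p = 0.0022). Ghr, which fat cells also express, went from 2.42 to 2.81 in normal tissue to -1.81 to -0.23 (-3.68 ± 0.38). Igfbp6, a binding protein with a preference for IGF2, fell by 1.83 ± 0.29, while Igfbp3, the main IGF carrier of serum, was higher at 3.78 to 5.92 against 1.78, 2.57 and 2.60 (2.57 ± 0.61, adjusted p = 0.0106), except when normal 1 was left out (0.0595). The mean of the adipocyte list lay between -4.51 and -3.26 on the same arrays, and its part in the fall of Ghr was not tested.

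Notch3, a Notch receptor of pericytes and of some luminal progenitors, rose in all carcinomas. It stood at 0.84, 2.22 and 2.27 in normal tissue and at 5.09 to 5.76 (median 5.30) in carcinomas (3.55 ± 0.40, adjusted p = 0.000119). Of 11 Notch pathway genes tested, 3 rose and 0 fell (27.3% against 12%), but 2 were higher and 2 lower with quantile normalization or median centring, and 2 higher and 5 lower with normexp and the 75th percentile. Of 14 FGF ligands and receptors, 4 rose (28.6% against 12% of all genes) and 3 fell (21.4% against 8.85%). These counts were 1 and 1 without normal 3, 2 and 2 without normal 1, 2 and 3 without normal 2 or IR-7W 3, and 3 and 6 with normexp and the 75th percentile. Fgf2, a stromal growth factor, fell from -3.10, -3.30 and -3.14 to between -6.64 and -5.59 (-2.80 ± 0.37, adjusted p = 0.000237, and -0.57 with normexp and quantile normalization). Fgfr3, a receptor, rose by 2.87 ± 0.56 (adjusted p = 0.00345) and Wnt5a, a non-canonical Wnt ligand detected on no normal array, was at least 5.48-fold higher (adjusted p = 0.00058). Both calls were lost with normexp and the 75th percentile (adjusted p = 0.0594 and 0.599).

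**Figure D3:**
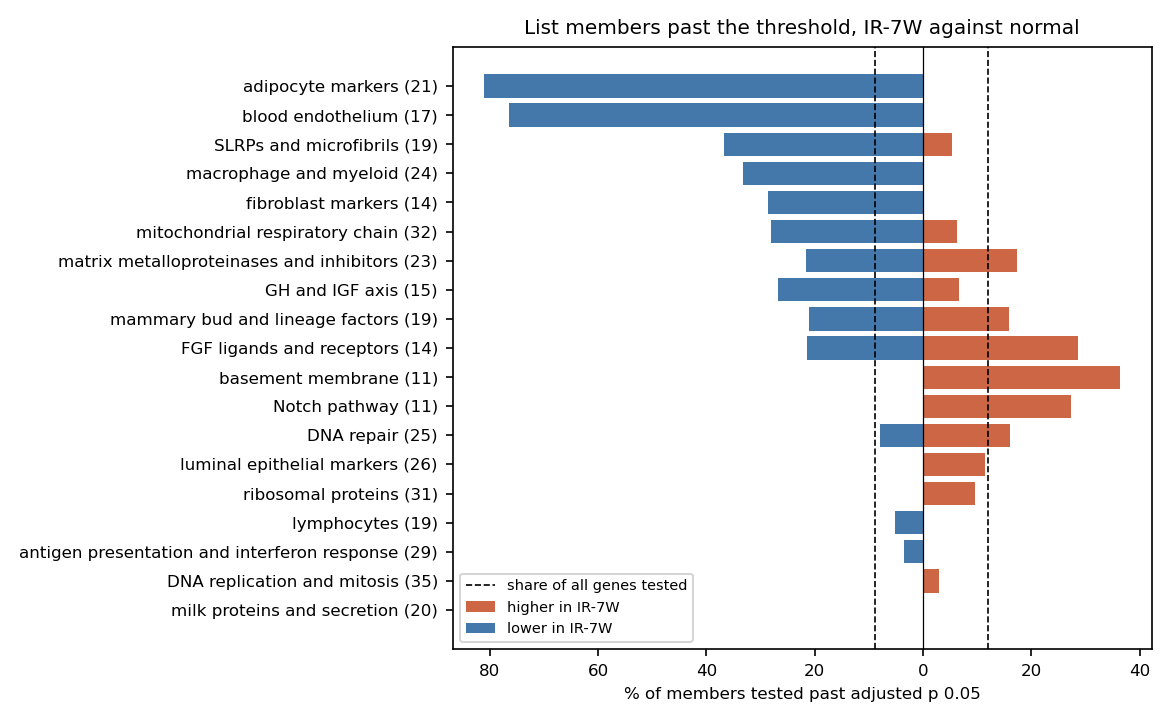
Share of the tested members of 19 lists (number tested in parentheses) called higher (right, orange) or lower (left, blue) in IR-7W carcinomas; dashed lines mark the shares of all genes, 12% higher and 8.85% lower. Adipocyte markers (81%) and blood endothelium (76.5%) lie far beyond the line for lower genes, and 36.4% of basement membrane genes were higher.

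Stromal matrix genes fell in part. Of 19 small leucine-rich proteoglycans and microfibril proteins, 7 fell and 1 rose (36.8% against 8.85% and 5.26% against 12%), with a median of -0.62. Without normal 1, 4 were lower and 0 higher, and no gene was called higher without normal 2, normal 3, IR-7W 2, IR-7W 3, IR-7W 4 or IR-7W 6 or with either normexp setting. Dcn, decorin, a proteoglycan that binds collagen fibrils, stood at 5.66, 5.52 and 5.50 in normal tissue and at 3.55 to 4.87 (median 3.89) in carcinomas (-1.50 ± 0.27, adjusted p = 0.00219). Ogn, osteoglycin of the same family, stood at 3.22, 3.14 and 2.41 against -1.74 to 0.59 (-3.21 ± 0.50), and Omd, osteomodulin, fell by 2.06 ± 0.36 (1.09 in size with normexp and quantile normalization, at an unchanged call). Mfap5, a microfibril protein, fell by 2.67 ± 0.51 with carcinoma values of 1.31 to 3.86. Fbln5, which assembles elastic fibres, was lower by 2.13 ± 0.48, lost without normal 1 (adjusted p = 0.0525). Aspn, asporin, was lower by 1.68 ± 0.49 (adjusted p = 0.0283), lost without normal 1 (0.113) or normal 3 (0.11).

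Calls among fibrillar collagens varied with the setting. Of 17 collagen genes and processing enzymes, 1 was higher (5.88% against 12% of all genes) and 2 lower (11.8% against 8.85%). There were 0 higher and 1 lower without normal 1 or normal 2, and 1 lower without normal 3. Quantile normalization gave 4 higher, and either normexp setting or a fit of only the 2 groups gave 3 higher. Col1a1, the main chain of type I collagen, stood at 5.36 to 6.38 in carcinomas and 4.75 to 4.94 in normal tissue, without overlap and without passing (0.98 ± 0.39, adjusted p = 0.0911), though it passed in a fit of only the normal and IR-7W arrays (adjusted p = 0.02), with quantile normalization (0.0173) and with normexp and the 75th percentile (0.00769). Its other probe ran the opposite way (-0.86 ± 0.64, adjusted p = 0.373), and the mean of both probes was 0.06. Col3a1, type III collagen, was at 4.87 to 5.47 in 5 carcinomas and at 6.67 in IR-7W 1, against 7.2, 7.03 and 6.66 (-1.56 ± 0.44, adjusted p = 0.0239), lost without normal 1 (0.0961) or normal 2 (0.083). Col5a3, a chain of type V collagen, was lower by 2.36 ± 0.57 (adjusted p = 0.0116), lost without normal 3 (0.0578). Vcan, the large proteoglycan versican, was higher by 3.34 ± 0.78 (adjusted p = 0.00996), except when normal 2 was left out (0.0571) and among probes above background on every array (0.0563). Pdgfra, the PDGF receptor of fibroblasts, fell from 2.93, 2.65 and 2.57 to 0.61 to 1.82 (-1.65 ± 0.30, adjusted p = 0.002). Of 14 fibroblast markers 0 rose and 4 fell (28.6% against 8.85% of all genes). That count was 2 without normal 1 or normal 3, 6 without IR-7W 1 and 7 with normexp and the 75th percentile.

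Matrix proteases and their inhibitors were divided. Of 23 tested, 4 were higher (17.4% against 12% of all genes) and 5 lower (21.7% against 8.85%). The counts were 3 and 3 without normal 1 or normal 2, 1 and 5 without normal 3, and 2 and 9 with normexp and the 75th percentile. Mmp3, stromelysin, stood at 0.20, 0.17 and -1.60 in normal tissue and at 2.45 to 6.39 in carcinomas (4.41 ± 1.16, adjusted p = 0.0176), lost without normal 3 (0.0798). Mmp13, a collagenase, stood at 1.37 to 5.03 against -2.71, 0.26 and -2.43 (4.98 ± 1.44, adjusted p = 0.0279), and was lost without normal 1 (0.116), normal 3 (0.0968), IR-7W 1 (0.0511) or IR-7W 2 (0.051). Mmp16, a membrane-type metalloproteinase, rose by 3.12 ± 0.55, lost with normexp and the 75th percentile (adjusted p = 0.12). Timp1, an inhibitor of these enzymes, fell from 6.36, 5.84 and 3.93 to 2.55 to 3.78 (-2.22 ± 0.47, adjusted p = 0.00545). Mmp23, a metalloproteinase without a typical activating switch, fell by 3.18 ± 0.48 and Adamts5, which cleaves aggrecan and versican, by 2.59 ± 0.56.

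Blood vessel markers were lower almost throughout. Of 17 blood endothelial genes, 13 fell and 0 rose, 76.5% against 8.85% of all genes, with a median of -1.96. The mean of the list on the arrays was -2.60 to -0.95 in carcinomas, with IR-7W 1 the nearest to normal and IR-7W 5 the farthest. Emcn, an endothelial sialomucin, stood at 0.71, 1.10 and 1.31 in normal tissue and at -1.54 to -0.57 in carcinomas (-2.12 ± 0.39, adjusted p = 0.00241). Sox17, a factor of arterial endothelium, stood at -0.20, -0.16 and -0.58 against -5.29 to -2.89 (-3.35 ± 0.64), and Sox18, of the same gene family, at 2.58, 2.05 and 2.35 against -1.07 to 1.32 (-2.23 ± 0.52). Tek, the receptor of angiopoietins, fell by 2.12 ± 0.46 and Klf2, a factor induced by blood flow, by 1.80 ± 0.39.

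Kdr, the main VEGF receptor of endothelium, was at 2.80 to 3.50 in carcinomas and 5.16, 4.75 and 5.40 in normal tissue (-1.96 ± 0.52, adjusted p = 0.0196), lost without normal 1 (0.0702) or normal 3 (0.0739). The defining junction genes gave no call in the main fit. Pecam1 overlapped between groups (-1.03 ± 0.71, adjusted p = 0.332) but passed with normexp and the 75th percentile (-1.16, adjusted p = 0.00138). Cdh5, at -5.00 to -3.86 against -3.51 to -2.87, stood at -1.17 ± 0.39 (adjusted p = 0.0503). It passed as lower in 7 of 18 alternatives, among them median centring (0.0272), quantile normalization (0.0241), only the 2 groups fitted (0.0148) and slide as a random block (0.0334). The count of 13 lower genes became 5 without normal 1, 6 without normal 2 and 9 without IR-7W 5, with 0 higher in each. Cspg4, the NG2 proteoglycan of pericytes, fell by 2.36 ± 0.57. Of 11 pericyte and vascular smooth muscle genes 1 rose (Notch3, 9.09% against 12% of all genes) and 2 fell (18.2% against 8.85%). The lower count was 1 without each normal array and 5 without IR-7W 1. With normexp and quantile normalization Sox17 stood at -1.71 and Tek at -0.86.

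Myeloid markers were lower in part. Of 24 tested, 8 were lower and 0 higher (33.3% against 8.85%), with a median of -1.01, and the count became 3 without normal 1, 4 without normal 2, 4 without IR-7W 3 and 5 without IR-7W 2. Fcer1g, the signalling chain of Fc receptors, stood at 4.72, 4.30 and 4.26 in normal tissue and at 0.99 to 2.42 in carcinomas (-2.67 ± 0.39, adjusted p = 0.000505). Trem2, a lipid receptor of macrophages, stood at 6.02, 4.71 and 4.78 against 1.42 to 3.03 (-2.82 ± 0.52, adjusted p = 0.00251), and its adaptor Tyrobp fell by 1.67 ± 0.37. Csf1r, the growth factor receptor of macrophages, at -0.74 ± 0.45 (adjusted p = 0.276), and C1qc, a complement chain, at 0.04 ± 0.41 (adjusted p = 0.953), overlapped between groups. The myeloid genes named here were thus divided into those that fell and those whose groups overlapped.

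Chemokine genes gave 5 lower calls of 29 (17.2% against 8.85% of all genes) and 0 higher. The lower count was 2 without normal 1 or normal 2 and 13 with normexp and the 75th percentile. Ccr1, a receptor of inflammatory chemokines, fell from 0.67, -0.74 and -0.50 to -3.43 to -2.32 (-2.74 ± 0.49, adjusted p = 0.00188), and Cxcl17, a mucosal chemokine, from 0.86, 1.36 and 0.12 to -2.85 to -0.22 (-2.54 ± 0.51, adjusted p = 0.00417). Of 19 lymphocyte markers 1 was lower (5.26% against 8.85%), and Cd3d, a T-cell receptor chain, overlapped between groups (-1.16 ± 0.55). Of 29 antigen presentation and interferon genes 1 was lower (3.45% against 8.85%), with a median of -0.11.

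Cell division genes gave 1 call. Of 35 replication and mitosis genes, 1 was higher (2.86% against 12%), namely Kif2c, a kinesin of the mitotic spindle (1.75 ± 0.48, adjusted p = 0.0225), lost without normal 2 (0.132), while without normal 3 there were 2 higher calls. The list varied within both groups, from -0.91 in normal 2 to 0.69 in normal 3 and from -0.31 in IR-7W 2 to 1.70 in IR-7W 5, so the groups overlapped. Rb1, the retinoblastoma protein that restrains entry into S phase, was at 1.04 to 3.37 in carcinomas and 4.41, 4.48 and 2.73 in normal tissue (-2.03 ± 0.56, adjusted p = 0.0235), lost without normal 1 (0.108) or normal 2 (0.112) and with the mean of its probes (0.129).

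Genes of the p53 response and of DNA repair, which radiation acts on acutely, were measured here in tumours collected at 50 weeks of age. Of 19 p53 targets, 3 were higher (15.8% against 12% of all genes) and 2 lower (10.5% against 8.85%), so both shares lay near those of all genes. These counts were 0 and 1 without normal 1, 1 and 1 without normal 3, and 1 and 2 without normal 2 or IR-7W 4. Cdkn1a, the p21 inhibitor and a main p53 target, did not pass (0.69 ± 0.38, adjusted p = 0.218). Of 25 repair genes, 4 were higher (16% against 12% of all genes) and 2 lower (8% against 8.85%), again near the shares of all genes. With normexp and the 75th percentile 2 were higher and 6 lower. Parp1, which senses strand breaks, stood at 5.62, 5.55 and 5.82 in normal tissue and in a narrow band of 4.45 to 4.72 in carcinomas (-1.07 ± 0.17, adjusted p = 0.000979). Its other, dimmer probe differed by -0.37 ± 0.19 and was not called in limma (adjusted p = 0.193). Xrcc1, the scaffold of single-strand break repair, fell from 4.87, 4.88 and 5.02 to 3.41 to 3.94 (-1.22 ± 0.24, adjusted p = 0.00364; -0.65 with normexp and the 75th percentile). Xrcc5, the Ku80 subunit of double-strand break repair, rose by 1.58 ± 0.26, a call lost with that setting (0.27, adjusted p = 0.291).

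Respiratory chain and ribosomal genes followed. Of 32 respiratory chain subunits, 9 fell (28.1% against 8.85% of all genes) and 2 rose (6.25% against 12%), with a median of -0.45. Ndufs7, a subunit of complex I, stood at 5.98, 6.06 and 5.89 in normal tissue and 4.32 to 4.87 in carcinomas (-1.46 ± 0.32, adjusted p = 0.00715), Ndufa2 fell by 1.11 ± 0.21, Ndufb9 by 1.06 ± 0.23, and Uqcrfs1, the iron-sulphur protein of complex III, by 0.98 ± 0.21. The 9 lower calls became 4 with normexp and the 75th percentile and without normal 3, and 5 without normal 1, normal 2, IR-7W 1, IR-7W 3 or IR-7W 6. With normexp and the 75th percentile Ndufb9 was -0.65 and Uqcrfs1 -0.60.

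Of 31 ribosomal proteins 3 were higher (9.68% against 12% of all genes) and 0 lower. The higher count was 1 without normal 1, 6 with quantile normalization and 8 with either normexp setting (with 3 lower in 1 of these). The median of -0.04 was that of all genes within 0.02. Rpl5, which binds 5S RNA and restrains Mdm2, stood on the probe used at 6.62 to 7.33 against 4.62, 4.90 and 5.33 (2.00 ± 0.24, adjusted p = 0.000112). Its other 2 probes differed by -0.03 (adjusted p = 0.962) and 0.13 (adjusted p = 0.736), so the call rests on 1 of 3 probes, and the mean of the 3 gave 0.86, still called. Calr, the calcium-binding chaperone calreticulin, fell by 1.42 ± 0.27 and Sel1l, an adaptor of degradation from the endoplasmic reticulum, by 0.98 ± 0.21. They were the 2 lower calls of 21 unfolded protein response genes (9.52% against 8.85% of all genes). Fdft1, squalene synthase, rose by 1.75 ± 0.37 (0.81 with normexp and the 75th percentile). It was 1 of 2 higher calls of 21 cholesterol genes (9.52% against 12% of all genes), which became 1 without normal 1 or normal 2. Slc1a5, a glutamine transporter, fell from 3.3, 3.06 and 3.74 to -0.46 to 1.77 (-2.91 ± 0.46), Pmp22, a myelin and epithelial membrane protein, by 1.47 ± 0.32, and Egr2, an immediate early transcription factor, rose from -1.64, -1.95 and -1.53 to 0.43 to 1.80 (2.88 ± 0.33, adjusted p = 9.13e-05).

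The 6 carcinomas differed widely from each other in genes of mast cells, of MHC class II and of muscle. The mast cell list stood at 2.75 in IR-7W 4, 2.05 in IR-7W 5, 1.08 in IR-7W 2 and 1.04 in IR-7W 1 relative to normal tissue, and at -2.38 in IR-7W 3 and -1.52 in IR-7W 6. Cma1, mast cell chymase, spanned -4.72 in IR-7W 3 and -3.05 in IR-7W 6 to 4.54 in IR-7W 4, against 0.80 to 1.40 in normal tissue. Cpa3, mast cell carboxypeptidase, followed the same order at the ends, with -5.79 in IR-7W 3, -4.94 in IR-7W 6 and 3.13 in IR-7W 4. Mcpt1, another chymase, and Ms4a2, a chain of the IgE receptor, were also highest in IR-7W 4 (2.52 and -0.03) and lowest in IR-7W 3 (-6.50 and -8.15). Normal tissue lay between these extremes, so the group means of the 4 genes hide a division among carcinomas, and none of them was called.

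In IR-7W 3, the probes used for 2 class II genes were far lower than on the other carcinoma arrays. RT1-Bb, a class II beta chain, stood on its brighter probe at -8.01 in IR-7W 3 and at 2.61 to 4.23 in the other 5 carcinomas. Its second probe was well above background on every array of the series and differed between carcinomas and normal tissue by 0.75 ± 0.45 (adjusted p = 0.258), against -2.24 ± 2.1 for the first, so the 2 probes disagree. RT1-Ba, its alpha partner, stood at -7.89 against -0.50 to 1.75. Ubd, a ubiquitin-like protein induced by interferon, was also lowest there at -3.31 against 2.06 to 5.10. The other class II pair did not drop out: RT1-Da stood at 3.4 in IR-7W 3 and 3.81 to 5.11 in the others, RT1-Db1 at 2.66 against 3.32 to 5.03, and Cd74, the class II invariant chain, at 4.02 against 4.49 to 5.91. IR-7W 3 was thus the lowest carcinoma for all 6 genes on the probes used, by more than 5 log2 units for the first 3 and by less than 1 for the others.

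Muscle genes, which a dissected gland can carry along from the skin muscle or body wall, stood out in 1 array. The skeletal muscle list was at 2.61 in IR-7W 6 and 1.34 in IR-7W 1, and between -1.40 and -0.68 in the other 4, with normal tissue at -0.68 to 0.78. Myh4, a fast myosin, was well above background on 1 carcinoma array and stood at 1.31 in IR-7W 6 against -7.76 to -5.91 in the others. Ckm, muscle creatine kinase, was at 0.23 there and at -5.68 to -1.54 in the others, and Acta1, skeletal actin, ranged from -5.78 in IR-7W 3 to 0.60 in IR-7W 6. None of these 3 genes was called against normal tissue.

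Further genes varied widely among carcinomas. Pou3f3, a POU-domain factor of brain and kidney, was at 3.58, 3.52 and 0.88 in IR-7W 2, 5 and 6 and at -8.06, -7.51 and -2.0 in IR-7W 3, 4 and 1, with no normal array well above background. Lefty2, a Nodal inhibitor, stood at -3.28 in IR-7W 2 and up to 5.58 in IR-7W 5. Rhox5, a homeobox gene of the reproductive tract that many rodent tumour lines express, was at 3.38 in IR-7W 1 and at -4.49 and -4.12 in IR-7W 6 and 3, with the normal arrays at -1.81, -1.80 and -1.81. Csn1s2b, a minor casein, was well above background on 3 carcinoma arrays, with -0.30 in IR-7W 4 as the highest. Trim45, a ubiquitin ligase, was at -6.69 in IR-7W 5 and at 1.18 to 2.32 in the other 5, which overlapped with normal tissue at 1.38, 1.55 and 1.92. None of these 5 genes was called in the main fit. Lefty2 was close, at 6.18 ± 2.09 (adjusted p = 0.0525). It passed in 5 of 18 alternatives, among them quantile normalization (0.0427), only the 2 groups fitted (0.026) and without IR-7W 2 (0.0216). Pou3f3 passed as higher in the deposited values (4.53, adjusted p = 0.0358).

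**Figure D4:**
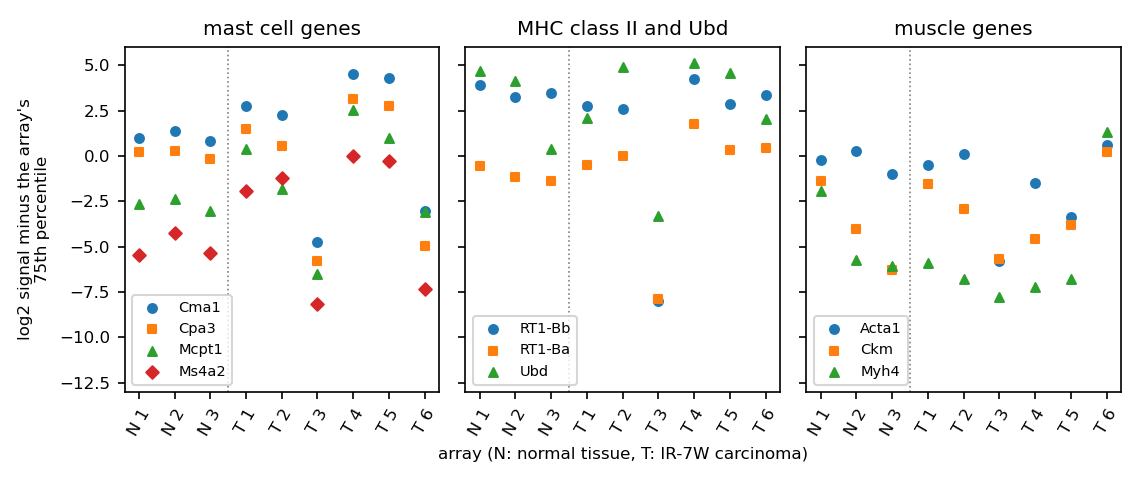
Log2 level (signal minus the array's 75th percentile) of mast cell genes (left), MHC class II genes with Ubd (middle) and skeletal muscle genes (right) on each normal (N) and IR-7W (T) array. IR-7W 3 is lowest for the mast cell genes and for the RT1-Bb probe used, at -8.01, and IR-7W 6 is highest for Myh4 at 1.31.

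The IR-7W carcinomas were set directly against the 4 IR-3W carcinomas, which share scan and scanner with them but only in part the slides. IR-7W 2, 3, 4 and 6 lay on a slide without IR-3W arrays, and IR-3W 3 and 4 on a slide without IR-7W arrays. IR-3W 3 was the dimmest carcinoma array, with a 75th percentile of 276 signal units. The difference of means uses no normal array, but the normal arrays enter the estimate of spread behind each SE and p. Of 25344 genes, 187 differed in limma (0.738%), 38 higher in IR-7W (0.150%) and 149 lower (0.588%). The count was 583 without IR-3W 1, 64 without IR-3W 2, 29 without IR-3W 4, 63 without IR-7W 2, 31 without IR-7W 3, 114 without IR-7W 4, 37 without IR-7W 5 and 95 without IR-7W 6. With only the carcinoma arrays fitted, 22 genes differed. Of the 187, 99 had also been called against normal tissue, as were 20.8% of all genes. Both comparisons hold the same 6 IR-7W arrays and share the estimate of spread, so an overlap of their calls is no independent evidence. Among the fat-cell markers 0 of 21 differed between carcinomas (median difference 0.22), and among blood endothelial markers 0 of 17 (median -0.86). With 0.738% of all genes called, 0 calls in lists of this size do not show that the carcinoma groups were alike. In the small proteoglycan and microfibril list, 8 of 19 members were lower in IR-7W than in IR-3W carcinomas, with a median difference of -1.58.

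Aspn stood at -2.13 ± 0.83 (SD, n = 6) in IR-7W and at 1.37 ± 0.61 (SD, n = 4) in IR-3W carcinomas, a difference of -3.50 ± 0.44 (adjusted p = 0.0133 in limma). Ogn differed by -3.44 ± 0.45 and Omd by -2.55 ± 0.33. Their IR-3W means, 3.15 for Ogn and -0.44 for Omd, lay near the normal means of 2.92 and -0.94. Col3a1 was lower by 2.90 ± 0.40, with IR-3W carcinomas at 8.31 ± 0.81, above normal tissue at 6.96. Id3, an inhibitor of differentiation factors that BMP signals induce, stood at 2.04 ± 0.29 in IR-7W, 4.02 ± 0.25 in IR-3W and 4.00 ± 0.53 in normal tissue (-1.98 ± 0.24 between carcinomas, adjusted p = 0.0133). These 5 calls were kept in each leave-one-array-out fit.

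Other genes that differed between carcinomas lost the call in at least 1 such fit or with another background correction. Dcn was lower by 1.55 ± 0.25 (adjusted p = 0.0225), lost without IR-3W 4 (0.0949), IR-3W 2 (0.0525), IR-7W 3 (0.0555) or IR-7W 5 (0.051). Pdgfra, at -1.46 ± 0.27, and Timp1, at -2.19 ± 0.43, were lost without IR-3W 4 (0.126 and 0.145), IR-3W 2 (0.0529 and 0.0798), IR-7W 2 (0.0816 and 0.0894), IR-7W 3 (0.0807 and 0.0926), IR-7W 4 (0.0554 and 0.0578), IR-7W 5 (0.0647 and 0.0857) or IR-7W 6 (0.0693 and 0.0627), and Timp1 also without IR-3W 3 (0.0651). The stromal transcription factor Osr2 was lower by 3.24 ± 0.54 and Bnc2, a zinc finger factor of fibroblasts, by 3.08 ± 0.62. Both were lost without IR-3W 4 (0.101 and 0.121), IR-3W 2 (0.0583 and 0.09), IR-7W 3 (0.0555 and 0.0997) or IR-7W 5 (0.0534 and 0.0934), and Bnc2 also without IR-3W 3 (0.0695), IR-7W 1 (0.0516), IR-7W 2 (0.095) or IR-7W 6 (0.0764). These 2 also fell against normal tissue, by 3.68 ± 0.59 for Osr2 and 3.05 ± 0.68 for Bnc2, and with normexp and quantile normalization Osr2 stood at -1.06, still called, and Bnc2 at -0.79, no longer called (adjusted p = 0.0604). Wfdc21, a small secreted protein with a whey acidic protein domain, was at least 19.0-fold lower than in normal tissue (fitted at -4.65, and at -1.27 with normexp and quantile normalization) and differed by -3.69 ± 0.57 between carcinomas, lost without IR-3W 2 (0.0525) and IR-7W 3 (0.0527). Fgf2 (-2.29 ± 0.34) and Aox1 (-2.66 ± 0.39) were lost without IR-3W 4 (both 0.0673), and Fgf2 was -0.36 with normexp and quantile normalization (0.126).

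Among genes higher in IR-7W than in IR-3W carcinomas, Areg stood at 6.80 ± 0.68 against 4.01 ± 1.14, a difference of 2.79 ± 0.49 (adjusted p = 0.0294). The value lay between 2.5 and 3.34 when each array was left out in turn, and the call was lost without IR-3W 2 (0.0719), IR-3W 3 (0.0537), IR-3W 4 (0.117), IR-7W 2 (0.0534), IR-7W 3 (0.062) or IR-7W 5 (0.0647). Prlr differed by 2.87 ± 0.57 (adjusted p = 0.0414) and was called without IR-3W 1, but lost when any other single carcinoma array was left out (0.0637 to 0.157). Cd200 differed by 2.5 ± 0.39 (adjusted p = 0.0225), lost without IR-3W 2 (0.0651) and IR-7W 3 (0.0555). Spint2 (0.13 ± 0.30), Notch3 (-0.23 ± 0.40) and Pck1 (0.25 ± 0.23) did not pass between carcinomas.

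**Figure D5:**
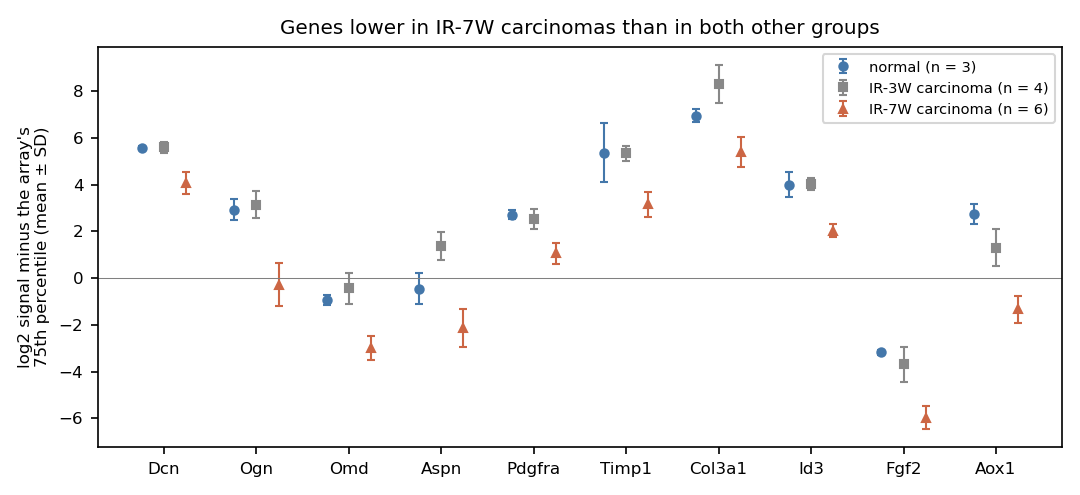
Mean log2 level ± SD of 10 genes in normal tissue (circles, n = 3), IR-3W carcinomas (squares, n = 4) and IR-7W carcinomas (triangles, n = 6). Each was called lower in IR-7W carcinomas than in both other groups, and for Dcn, Ogn and Id3 the IR-3W means (5.61, 3.15 and 4.02) lie close to the normal means (5.56, 2.92 and 4.00).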

How the data were processed

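Each deposited scanner file held 1 array; per the file headers it was made with Agilent Feature Extraction 10.7.3.1, and its intensity values are spot signals from which that software had subtracted background. A deposited log2 table of the same arrays served as an alternative.

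From the processed intensity, 1639 control spots and spots with outlier flags were left out, spots of a probe were averaged, and each array's 75th percentile over non-control spots was subtracted on the log2 scale. Of 41012 probes, 29290 were well above background on at least 3 of 13 arrays and were kept. The brightest probe stood for a gene, named through its RefSeq accession (16815 probes matched), which left 25344 genes, 10515 with a symbol. Of 2437 genes with several kept probes, 35 had probes called in both directions. Group means were fitted to all 13 arrays with limma 3.58.1 in R 4.3.3 (lmFit and eBayes, two-sided), with Benjamini-Hochberg adjustment over all genes and a threshold of 0.05. The unit was as planned. Array numbers limit the precision, and the fit was tested on simulated data.

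Where no array of a group showed a gene well above background, its fold is a bound, written "at least N-fold": the bright group's mean against the dim group's mean of, per array, the higher of the lowest signal well above background and the probe's own.

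The gene lists and the genes compared were chosen with earlier results of these data known. Named genes with a symbol are part of these: the 15 highest and 15 lowest called differences without overlap, the 6 largest bounds each way, in each list the 4 smallest p and the 4 brightest members, all ErbB, hormone receptor and milk genes, the 12 with the largest SD among IR-7W arrays, and the 6 highest and 6 lowest IR-7W minus IR-3W differences among genes called in both contrasts. A few genes under this rule are not reported here.

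Alternatives were quantile normalization, median centring, other filters on dim probes, the mean of all probes, a fit of only the groups compared, slide as a random block, the replicate number as a block, the deposited log2 values and leaving out each array. The planned normexp correction on mean signals was not run, since the columns used here hold median signals; normexp (offset 50) on median signals, followed by quantile normalization or the 75th percentile, was added after seeing the data.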

Additional observations from a re-analysis of the deposited data

Results flagged for a closer look

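In 16 genes named above, the test of the difference between IR-7W and IR-3W carcinomas passed in limma. Lower in IR-7W were Wfdc21 (-3.69), Aspn (-3.50), Ogn (-3.44), Osr2 (-3.24), Bnc2 (-3.08), Col3a1 (-2.90), Aox1 (-2.66), Omd (-2.55), Fgf2 (-2.29), Timp1 (-2.19), Id3 (-1.98), Dcn (-1.55) and Pdgfra (-1.46), on the log2 scale. Higher in IR-7W were Prlr (2.87), Areg (2.79) and Cd200 (2.5). Aspn, Ogn, Omd, Col3a1 and Id3 were called without each array in turn, and the other 11 lost the call without at least 1 array.

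In 7 of the 153 genes tested for it, 1 carcinoma array lay far from the other 5 by Dixon's test, a share no larger than the 5 percent that chance gives, and some of these genes were named for their large spread among IR-7W arrays. IR-7W 3 was apart for the brighter RT1-Bb probe (-8.01), RT1-Ba (-7.89), Ubd (-3.31) and Igf1 (2.90). IR-7W 1 was apart for Col3a1 (6.67), IR-7W 5 for Trim45 (-6.69) and IR-7W 6 for Myh4 (1.31).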

How the results depend on the processing

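Of 110 named genes that passed against normal tissue, 85 passed under every alternative other than the replicate block, and 19 lost the call when at least 1 array was left out. The 5274 calls became 12720 with normexp and the 75th percentile (10665 lower), 13773 without the filter on dim probes (10347 lower) and 3470 among probes well above background on every array (1520 higher), which tests fewer genes. Leaving out 1 array gave 3038 to 4811 calls, 1987 to 2819 higher and 996 to 2003 lower. With normexp and the 75th percentile, 574 of the 5274 called genes were called in the opposite direction. The values of Esr1, which had not been called, and Erbb3, no longer called there, turned to -1.02 and -0.07. The cause was not tested. Between carcinomas, the 187 calls became 7465 with that setting, 107 without the filter, 22 with only the groups compared, 336 with slide as a random block and 29 to 583 with 1 array left out. Same-numbered normal and IR-7W samples did not deviate together (r of 0.02, 0.07 and -0.08, against -0.21 to 0.19 for other pairs). So few pairs give no sign of a pairing and cannot exclude one. With the replicate block, 2292 genes were called against normal tissue (1524 higher, 768 lower). Between carcinomas, that block left 0 called in limma (2068 at an unadjusted p under 0.05). Slide, scan, scanner, age and diet lie with tissue, and the dim normal arrays limit what low signals can show.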
